A study of Mus musculus with 24 samples.

Results

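The 48 genes described here are the cell cycle and mitosis genes of mouse skin, a list of named genes split by role into 17 S phase and DNA replication genes and 31 G2 and mitosis genes. They were looked up by symbol among the 18892 genes of the expression table, and a gene was tested where it reached 1 FPKM or more in 4 or more libraries. FPKM is a level corrected for the length of the gene and the depth of the library, so it can be compared between genes. All 48 genes passed, as did 13039 genes in all.

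Poly(A) RNA was sequenced from 24 mouse skins, 4 mice in each of 6 groups. Treatment mice were injected daily with dihydrotestosterone (DHT), a potent androgen, and had an HLX (Hanlianxiang, a traditional Chinese medicine formula) extract put on the skin. Model mice had the same DHT injections with solvent alone on the skin, and control mice had saline injections with solvent on the skin. Each treatment was sampled at day 15 and at day 10, in different mice. DHT reached the whole animal and not the skin alone, the solvent was shared by all groups, and no group received the extract without DHT. Strain, age, sex and dose are not given in the sources used here.

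Cells copy their DNA in S phase and divide it in mitosis, and both steps rest on genes that are switched on late and shut off again in each cycle. The genes of replication are largely under E2F factors at the G1 to S transition. The genes of mitosis are held back in resting cells by the DREAM complex and are driven later by MYBL2 with the MuvB core and by FOXM1, through CCAAT boxes bound by NF-Y and through the CHR (cell cycle genes homology region). In skin the dividing cells are mainly the hair matrix at the base of a growing follicle and the basal layer of the epidermis, so these transcripts are commonly read as a measure of proliferation. In bulk skin, fewer dividing cells and less RNA per dividing cell cannot be told apart.

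The promoters of the list are shown first because the S phase and mitosis genes differ in their letters. RefSeq promoter windows (build GRCm38.p6, 250 bases before to 50 after the start) matched 40 of the 48 genes, 14 of S phase and 26 of mitosis. Counts are per gene, with the highest count of each motif where a gene had several windows. Not all chromosomes were searched. On either strand, a CHR was searched as TTTGAA and as TTCGAA. It stood in 21 of 26 mitosis promoters (80.8%) and in 3 of 14 S phase promoters (21.4%). Of all 27025 genes with a window searched, 21.7% held it. An E2F site was searched as TTTCCCGC or TTTGGCGC or TTTGCCGC or TTTCGCGC. It stood in 1 of 26 mitosis promoters (3.85%) and in 6 of 14 S phase promoters (42.9%). Of the 27025 genes, 2.6% held it. CCAAT occurred in 22 of 26 mitosis promoters (84.6%), 9 of 14 S phase promoters (64.3%) and 41.1% of all. Both CCAAT and a CHR were found for 76.9%, 21.4% and 9.65% of mitosis, S phase and all genes, though not necessarily in the same window of a gene. Among the promoters of genes that passed the expression filter, 16.8% held a CHR and 4.43% an E2F site. These are matches of letters and not measured sites.

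The 200 bases before the start are printed for 3 mitosis and 3 S phase genes that the comparisons below return to, on the strand of the gene, with CCAAT, CHR and E2F matches of either strand in capitals. They lie at chr4:118437344-118437543 (minus strand) for Cdc20, chr2:164769729-164769928 (plus) for Ube2c, chr9:70421555-70421754 (minus) for Ccnb2, chr8:75109309-75109508 (plus) for Mcm5, chr1:128359706-128359905 (minus) for Mcm6 and chr7:102441495-102441694 (plus) for Rrm1.
Cdc20: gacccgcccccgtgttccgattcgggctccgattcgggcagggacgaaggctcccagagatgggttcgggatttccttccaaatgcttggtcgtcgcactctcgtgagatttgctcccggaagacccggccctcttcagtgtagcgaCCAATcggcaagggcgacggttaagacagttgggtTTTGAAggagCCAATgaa
Ube2c: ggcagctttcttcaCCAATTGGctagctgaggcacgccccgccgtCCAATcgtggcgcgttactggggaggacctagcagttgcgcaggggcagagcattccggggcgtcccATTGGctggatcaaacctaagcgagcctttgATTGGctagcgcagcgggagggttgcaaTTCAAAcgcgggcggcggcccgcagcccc
Ccnb2: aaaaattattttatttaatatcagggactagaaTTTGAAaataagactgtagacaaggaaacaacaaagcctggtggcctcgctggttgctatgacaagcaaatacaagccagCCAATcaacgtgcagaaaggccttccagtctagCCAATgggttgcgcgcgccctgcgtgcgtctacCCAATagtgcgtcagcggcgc
Mcm5: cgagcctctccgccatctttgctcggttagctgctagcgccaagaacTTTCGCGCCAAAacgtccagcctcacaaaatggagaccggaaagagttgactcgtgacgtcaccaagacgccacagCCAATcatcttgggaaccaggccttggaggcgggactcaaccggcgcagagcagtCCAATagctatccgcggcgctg
Mcm6: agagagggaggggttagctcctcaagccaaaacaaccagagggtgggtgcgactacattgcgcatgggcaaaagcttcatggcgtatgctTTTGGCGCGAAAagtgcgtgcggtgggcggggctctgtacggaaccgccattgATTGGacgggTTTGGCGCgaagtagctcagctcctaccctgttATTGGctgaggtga
Rrm1: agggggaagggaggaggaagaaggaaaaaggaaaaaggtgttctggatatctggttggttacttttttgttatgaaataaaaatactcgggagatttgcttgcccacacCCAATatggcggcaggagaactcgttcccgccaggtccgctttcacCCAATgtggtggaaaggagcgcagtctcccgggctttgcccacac
The promoters of Cdc20, Ube2c and Ccnb2 each held CCAAT at least 2 times, 1 CHR match and no E2F match in the 200 bases printed. The wider window of Ccnb2 held 2 CHR matches. Those of Mcm5 and Mcm6 held 2 and 3 E2F matches, which overlap in part, and no CHR. Rrm1 held CCAAT 2 times and neither of the other motifs in these letters.

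Levels within the list ran from Cdc6, which loads the replicative helicase onto origins and averaged 1.65 to 2.25 FPKM over the groups, to Pcna, the sliding clamp of replication, which averaged 88.3 to 106 FPKM. The fewest reads behind a member in any library were 198, for Cdc6, and the most were 16367. Library totals recovered from the table were 37048896 to 41117262 reads. The skin label held: 10 markers of basal epidermis summed to 757 to 1732 FPKM in every library, and 15 of hair matrix and shaft to 1978 to 8002 FPKM.

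Some libraries stood apart over genes outside the list. Model replicates 2 and 3 and treatment replicates 2 and 3, all of day 15, had mean correlations with their own group of 0.964, 0.957, 0.964 and 0.951, against 0.973 or more in the other 20 libraries. Model replicates 2 and 3 of day 15 were also the lowest of all 24 libraries for 28 and for 10 of the 48 genes. Libraries also differed in their long genes. For each library the median of the longest 20% of genes minus that of the shortest 20% was taken. It was lowest in treatment replicates 1 and 2 of day 15, at -0.214 and -0.155 (log2). It lay between -0.0855 and 0.121 in the other 22 libraries. Among these it was -0.0724 in treatment replicate 4 of day 15 and -0.0855 in treatment replicate 3 of day 10. Control replicate 2 of day 10 had -0.0801. The 4 treatment libraries named had the lowest summed Y-linked transcripts, at 22.3, 22.3, 33.4 and 28.3 FPKM. The other 20 had 39.2 to 50.6 FPKM, with 46.9 FPKM in control replicate 2 of day 10. Kidney transcripts marked the day 10 model and control libraries. There 9 kidney markers summed to 17.7 to 25.4 FPKM in model and 25.4 to 29.3 FPKM in control skin, against 0.232 FPKM or less in the remaining 16 libraries, where Kap and Umod were listed at 0.

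**Figure D1:**
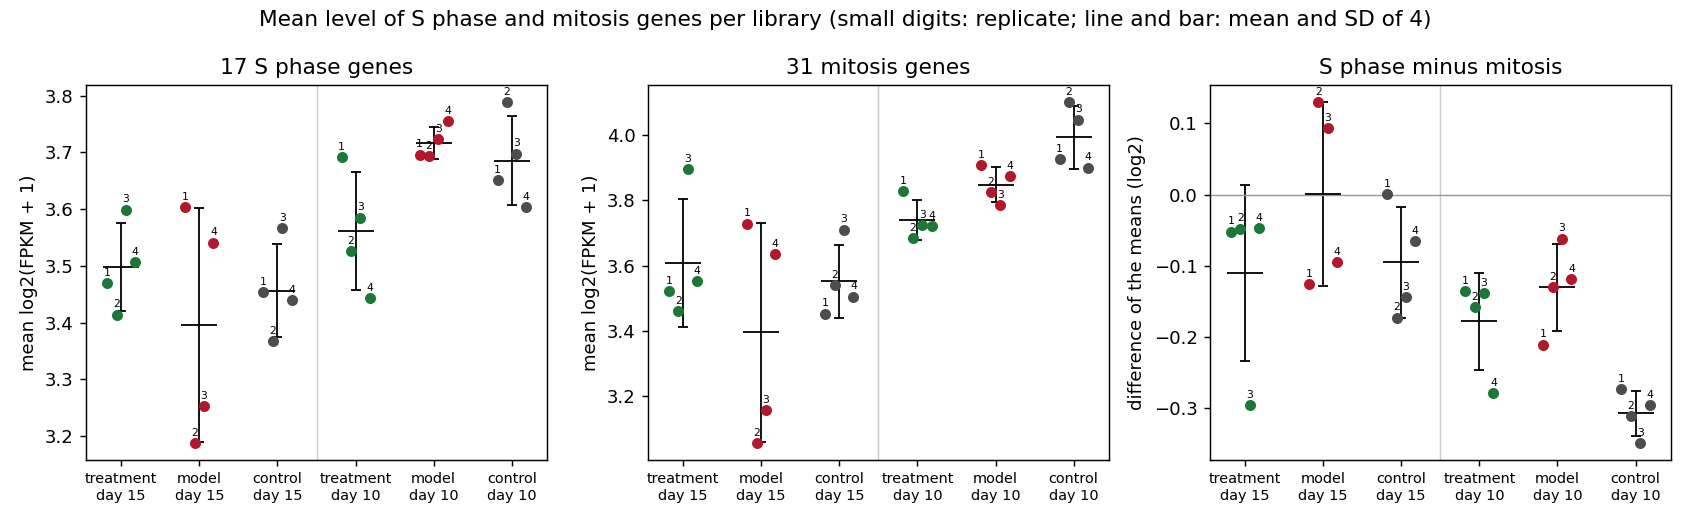
Mean log2(FPKM + 1) of the 17 S phase genes (left) and the 31 mitosis genes (middle) and their difference (right) in each of the 24 libraries, with small digits for the replicate and a line and bar for the mean and SD of 4 mice. Model replicates 2 and 3 of day 15 lie at 3.058 and 3.159 for mitosis genes, below every other library.

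The first question is how the genes moved between the days. In control skin they were lower at day 15 than at day 10, and mitosis genes more so than S phase genes. With limma, 16 of 48 genes fell at an adjusted p under 0.05 and none rose, against 3.33% of all tested genes that fell. The 16 were 15 mitosis genes and Rrm1, the large subunit of ribonucleotide reductase. All 48 differences were negative (46 under median-of-ratios scaling), with medians of -0.45 (log2) for mitosis and -0.26 for S phase genes, against -0.07 over all tested genes. In 40 of 48 genes every day 15 library lay below every day 10 library, against 15.4% of all genes.

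Cdc20, the activator of the anaphase-promoting complex, had 13.9, 15.8, 18.1 and 16.0 FPKM in control skin of day 15, against 22.2, 25.1, 25.0 and 21.6 FPKM at day 10. The days did not overlap, and the difference was -0.53 (SE 0.111, adjusted p = 0.0141, limma). Aurka, the kinase of centrosome maturation, had 4.79, 4.88, 5.59 and 4.62 FPKM at day 15, against 7.41, 7.85, 8.77 and 7.11 FPKM at day 10. This was again without overlap, by -0.56 (SE 0.126, adjusted p = 0.0210). Kif20a, a kinesin of the midzone and of cytokinesis, had the largest fall of the list, at 6.40, 6.61, 9.19 and 6.35 FPKM at day 15 against 9.96, 12.4, 11.4 and 10.1 FPKM at day 10. Replicate 3 stood above the other day 15 libraries, and the difference was -0.56 (SE 0.142, adjusted p = 0.0320). Prc1, which bundles the midzone microtubules, fell by 0.56 and its partner Kif23 by 0.51, with adjusted p of 0.0256 and 0.0335 in the same limma fit. The other mitosis genes that fell were the cyclins Ccna2 and Ccnb2, the kinase Plk1, the transcription factor Foxm1, the survivin gene Birc5, the E2 enzyme Ube2c, the spindle assembly factor Tpx2, the kinesin Kif2c, the GTPase-activating Racgap1 and the centromeric histone Cenpa.

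Other panel genes lay near the threshold on either side. Ccna2, the cyclin of S and G2 phase, had 18.4, 19.0, 23.9 and 19.3 FPKM in control skin of day 15, against 27.1, 33.8, 29.1 and 26.1 FPKM at day 10 (-0.51, adjusted p = 0.0407, limma). Aurkb, the kinase of the chromosomal passenger complex, had 8.20, 8.34, 10.8 and 9.62 FPKM at day 15, against 12.6, 15.3, 14.0 and 11.6 FPKM at day 10, just short of the call at an adjusted p of 0.0521. Neither overlapped, and replicate 3 of day 15 was the highest in both. Mki67, the Ki-67 antigen, had 27.5, 28.0, 33.4 and 27.2 FPKM in control skin of day 15, against 41.3, 43.1, 43.0 and 42.9 FPKM at day 10. These groups lay well apart, yet the difference of -0.54 (SE 0.160) had an adjusted p of 0.0538 in limma. The SE comes from the spread within all groups of the fit and not from control skin alone. The SD of Mki67 was 2.97 and 0.877 FPKM in control skin of day 15 and day 10. It was 7.56 and 7.82 FPKM in model and treatment skin of day 15. Cdk1, the mitotic kinase, had 7.93, 8.46, 8.83 and 7.33 FPKM at day 15 and 10.4, 12.4, 11.4 and 10.3 FPKM at day 10, with a difference of -0.41 (SE 0.127, adjusted p = 0.0614). It too showed no overlap. At the start of the cycle the differences were small: Ccne1, the cyclin of the G1 to S step, had 3.72, 3.77, 4.70 and 4.81 FPKM at day 15 and 4.85, 5.30, 3.60 and 3.57 FPKM at day 10, a difference of -0.01 with full overlap. Pcna, at 97.2, 101, 101 and 92.2 FPKM against 104, 105, 103 and 104 FPKM, differed by -0.09 (SE 0.0901, adjusted p = 0.577).

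The calls in control skin moved with single libraries and with the other groups in the fit. The count of 16 fell to 0 without day 10 replicate 2 or day 15 replicate 1, to 1 without day 15 replicate 2 or 4, to 4 without day 10 replicate 1 or 4 and to 7 without day 10 replicate 3. It was 39 without the 4 libraries that stood apart, 36 with only the control groups fitted and 6 under median-of-ratios scaling. Shares of all tested genes called in these fits are not given here. The kidney transcripts named above moved with the day in this comparison, and their part and that of the day cannot be told apart. Of other cell types, 2 of 7 sebaceous gland markers and 1 of 7 suprabasal markers (Flg) were called lower, and 1 of 9 macrophage markers higher. None of 15 hair matrix and shaft markers was called, and 10 were negative, at sums of 5487 to 6629 FPKM at day 15 and 4420 to 7810 FPKM at day 10. Their part was not tested.

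Model skin gave the same direction. At day 15, 25 of 48 genes were lower than at day 10 (limma, adjusted p under 0.05), and none was higher, against 6.85% of all tested genes that fell. Under median-of-ratios scaling the count was 9, and the median of all tested genes was 0.02 in place of -0.08. They were 18 mitosis genes and 7 S phase genes, namely Mcm2, Mcm4, Mcm5, Mcm6 and Mcm7 of the replicative helicase and Rrm1 and Rrm2 of ribonucleotide reductase. All 48 differences were negative, with medians of -0.44 for mitosis genes, -0.32 for S phase genes and -0.08 for all tested genes. Day 15 lay wholly below day 10 in 22 of 48 genes, against 12.8% of all genes.

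Plk1, a kinase that acts from mitotic entry to cytokinesis, had 8.07, 5.22, 5.94 and 8.72 FPKM in model skin of day 15, against 10.8, 11.3, 10.1 and 11.5 FPKM at day 10. The days did not overlap, replicates 2 and 3 of day 15 were lowest, and the difference was -0.60 (SE 0.121, adjusted p = 0.00790, limma). Aurka had 5.44, 4.42, 3.16 and 5.61 FPKM at day 15 and 7.80, 7.46, 7.65 and 7.77 FPKM at day 10. It had the largest difference of the list, -0.64 (SE 0.126, adjusted p = 0.00765), also without overlap. Rrm1, with 30.8, 23.9, 21.9 and 28.4 FPKM at day 15 and 36.4, 34.3, 32.7 and 34.0 FPKM at day 10, fell by 0.39 (SE 0.0811, adjusted p = 0.00993). Ccnb1, the main mitotic cyclin, had 26.1, 14.6, 16.7 and 22.8 FPKM at day 15 and 28.8, 26.3, 29.2 and 31.4 FPKM at day 10. Replicate 1 came just under the lowest day 10 library, and the difference was -0.54 (SE 0.132, adjusted p = 0.0207). Mcm2, a subunit of the helicase, overlapped at 13.5, 9.25, 8.11 and 11.2 FPKM against 14.3, 14.1, 14.6 and 12.8 FPKM, and fell by 0.40 (SE 0.105, adjusted p = 0.0259). Foxm1 had 6.12, 3.75, 3.58 and 6.38 FPKM at day 15 and 6.88, 7.11, 6.44 and 6.39 FPKM at day 10, which nearly touched, and fell by 0.40 (SE 0.119, adjusted p = 0.0409). Here too the fall lay mostly in replicates 2 and 3. Rrm2 overlapped as well, at 27.8, 16.8, 19.8 and 21.7 FPKM at day 15 and 27.5, 28.4, 27.7 and 28.4 FPKM at day 10.

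In other members replicates 1 and 4 of model day 15 came near the day 10 level, and replicates 2 and 3 did not. Top2a, the topoisomerase that untangles chromosomes, had 43.9, 24.1, 26.3 and 40.6 FPKM at day 15 and 47.2, 40.8, 42.6 and 43.3 FPKM at day 10. Birc5 had 22.7, 12.5, 14.1 and 19.8 FPKM at day 15, against 21.4, 22.4, 19.4 and 23.8 FPKM at day 10. Neither passed, with adjusted p of 0.0780 and 0.0956 in limma. The count of 25 was 2 without day 15 replicate 3, 13 without day 15 replicate 2, and 15, 10, 12 and 6 without day 10 replicates 1, 2, 3 and 4. It was 0 without the libraries that stood apart and 0 with only the model groups fitted, and Aurka and Plk1 were called in every fit that left out 1 library. How many of all tested genes were called in these fits is not given here, so the changes are not shown to be particular to the list. Kidney transcripts again moved with the day and cannot be told apart from it. The smallest difference in model skin was that of Pcna, -0.17. Hair matrix and shaft markers summed to 2925 to 4850 FPKM at day 15 and 1978 to 4822 FPKM at day 10, where 3 of 15 rose and 1 fell. Suprabasal markers, of cells that have left the cycle, summed to 413 to 841 FPKM at day 15 and 915 to 1714 FPKM at day 10, and 4 of 7 fell, Krt1, Krt10, Lor and Flg. Of 7 sebaceous gland markers 2 fell, and of 10 basal markers 1 fell. The part of these lists was not tested.

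In treatment skin no gene of the list passed between the days with limma, against 9.64% of all tested genes, 2 had an unadjusted p under 0.05, and voom on recovered reads called 0, with 4 at that level. The medians were -0.01 for S phase genes, -0.13 for mitosis genes and -0.06 for all tested genes. Signs depended on the scaling: of 48 differences 36 were negative, 46 under common-total and 27 under median-of-ratios scaling. For the 17 S phase genes these counts were 9, 16 and 8. Plk1 had 11.8, 11.1, 10.2 and 9.88 FPKM in treatment skin of day 15 and 10.7, 9.84, 13.5 and 10.6 FPKM at day 10, which overlapped. Cdc20 had 22.4, 20.5, 21.2 and 18.5 FPKM at day 15 and 21.3, 20.2, 22.2 and 18.8 FPKM at day 10, with nearly the same range. Neither gene was called, which does not show that its levels were equal. Plk1 and Cdc20 are also called below in treatment against model skin, which uses these same day 15 libraries. Foxm1 had 5.81, 6.24, 6.89 and 6.16 FPKM at day 15 and 6.86, 6.22, 6.31 and 6.85 FPKM at day 10. Tyms, the thymidylate synthase, had 5.04, 4.89, 6.55 and 4.74 FPKM at day 15 and 6.22, 5.39, 4.97 and 4.57 FPKM at day 10. Their days overlapped too, and the differences were -0.06 and 0.00. The genes with the lowest differences were Ccne2, another E-type cyclin, at -0.47, and Cenpf, a large kinetochore protein, at -0.42. Cenpf had 2.08, 2.40, 5.87 and 3.22 FPKM at day 15 and 5.17, 4.65, 3.68 and 4.92 FPKM at day 10, with replicate 3 of day 15 far above the other 3. Mybl2 had the highest difference, 0.15. Without that replicate 7 genes were called, and without the libraries that stood apart 9 fell, Mki67, Cenpe, Cenpf, Hmmr, Nusap1, Prc1, Kif23, Ccne2 and Pcna. Shares of all tested genes called in these fits are not given here. Basal markers summed to 1049 to 1411 FPKM in treatment skin of day 15 and 1486 to 1682 FPKM at day 10, where 7 of 10 fell. Hair matrix and shaft markers went the other way, at 5804 to 8002 FPKM at day 15 and 3551 to 4378 FPKM at day 10, with 5 of 15 called higher and all 15 positive. Of 7 sebaceous gland markers 3 fell, and of 6 fibroblast markers 2 fell. The part of these lists was not tested. Without the libraries with low Y-linked transcripts, which leaves 1 treatment library at day 15, the same replicate 3, the mitosis median was 0.13 in place of -0.13.

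That genes fell in control and model skin and were not called in treatment skin does not show that the groups differed in time, so the change of each difference was tested. The treatment-model difference was higher at day 15 than at day 10 for all 48 genes (45 under either other scaling), with medians of 0.35 for mitosis and 0.29 for S phase genes against 0.02 for all tested genes. None passed in limma, against 0.0997% of all tested genes. An unadjusted p under 0.05 was reached by 21 genes, the smallest adjusted p was 0.127, for Rrm1, and voom called 0, with 24 at that level. The test of the treatment-control difference was added after the day comparisons had been seen. It called 0 of 48 in limma, against 0.33% of all tested genes, with 45 positive differences, 16 at an unadjusted p under 0.05 and a smallest adjusted p of 0.133 for Cdc20. Voom called 0 there, with 17 at that level. Kidney markers moved with the treatment-model and with the treatment-control test, where 3 of the 3 tested were called higher in each. Their part was not tested. The model-control difference gave no call, against 0% of all tested genes, and no gene under an unadjusted p of 0.05 by limma or voom. Without model replicate 1 of day 15, 3 genes passed the treatment-model test, and the share of all tested genes in that fit is not given here.

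**Figure D2:**
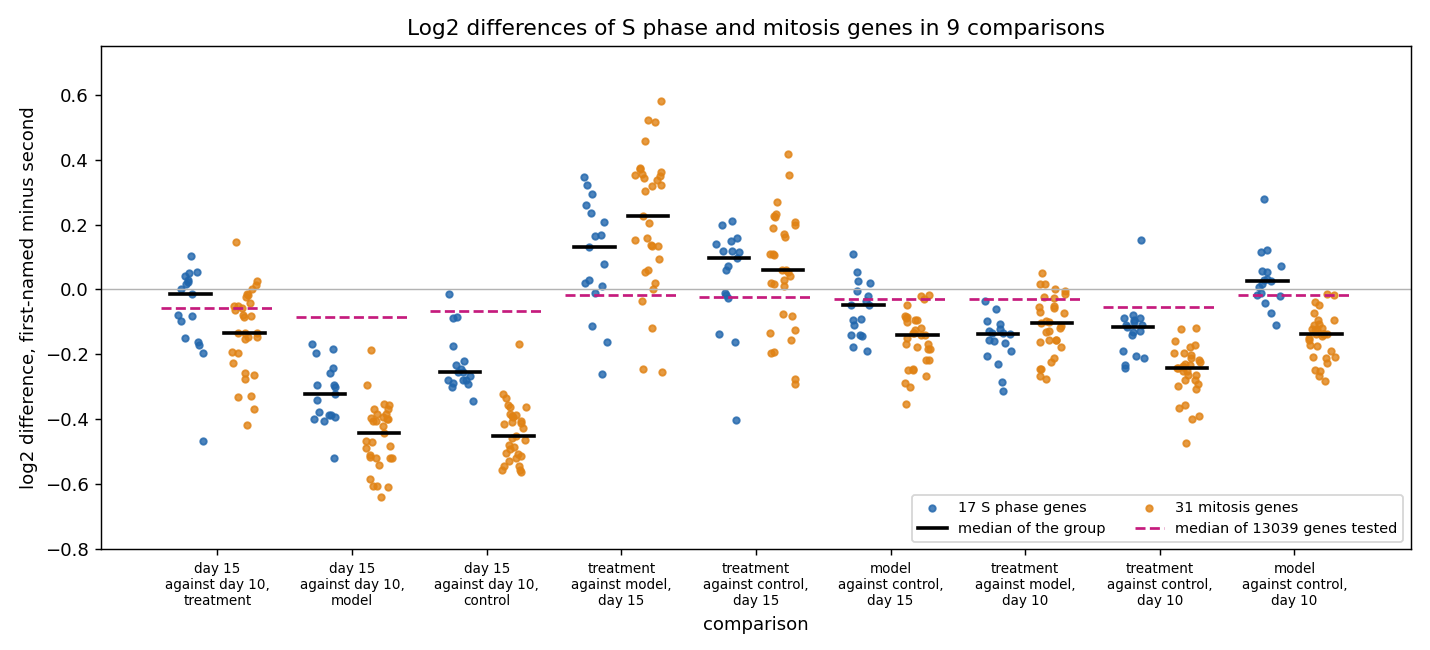
Log2 difference of each S phase gene (blue) and mitosis gene (orange) in 9 comparisons, first-named group minus second, with group medians as black lines and the median of all 13039 tested genes as a dashed line. Every gene lies below 0 between the days in model and in control skin (46 of 48 in control under median-of-ratios scaling), and mitosis medians are the lower ones (-0.44 and -0.45).

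The second question is how treatment skin, with DHT and the extract, differed from model skin, with DHT alone. At day 15, 11 of 48 genes were higher in treatment than in model skin and none was lower (limma, adjusted p under 0.05), against 10.3% of all tested genes that were higher. They were Mcm5 and Rrm1 of S phase, and Mybl2, Ccnb2, Plk1, Aurka, Cdca8, Bub1b, Cdc20, Ube2c and Tpx2 of mitosis. Of all 48 differences 40 were positive (34 under common-total scaling), with medians of 0.23 for mitosis genes, 0.13 for S phase genes and -0.02 for all tested genes. Treatment lay wholly above model in 3 genes, Plk1, Cdc20 and Rrm1, which is no larger a share than the 7.98% of all genes.

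Plk1 had 11.8, 11.1, 10.2 and 9.88 FPKM in treatment and 8.07, 5.22, 5.94 and 8.72 FPKM in model skin. The groups did not overlap, and this was the largest difference of the list, 0.58 (SE 0.121, adjusted p = 0.00382, limma). Cdc20 had 22.4, 20.5, 21.2 and 18.5 FPKM in treatment and 16.6, 11.03, 12.3 and 17.3 FPKM in model skin, a difference of 0.52 (SE 0.111, adjusted p = 0.00426). Rrm1 had 32.8, 32.8, 33.2 and 32.2 FPKM in treatment and 30.8, 23.9, 21.9 and 28.4 FPKM in model skin, a difference of 0.32 (SE 0.0811, adjusted p = 0.0109). The treatment libraries of Rrm1 lay within a narrow band above all model libraries. Aurka had 8.28, 7.01, 7.21 and 5.56 FPKM in treatment and 5.44, 4.42, 3.16 and 5.61 FPKM in model skin. Treatment replicate 4 and model replicate 4 were nearly level, and the difference was 0.52 (SE 0.126, adjusted p = 0.00943).

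The other 7 overlapped through model replicates 1 or 4. Cdca8, the borealin subunit of the chromosomal passenger complex, had 16.97, 17.04, 18.4 and 17.9996 FPKM in treatment and 17.9, 8.89, 10.96 and 14.1 FPKM in model skin (0.46, SE 0.136, adjusted p = 0.0235, limma). Tpx2, which activates Aurora A on the spindle, had 16.8, 16.3, 18.2 and 16.4 FPKM in treatment and 16.9, 10.3, 11.04 and 14.8 FPKM in model skin (0.36, SE 0.109, adjusted p = 0.0275). Ube2c, the E2 enzyme of the anaphase-promoting complex, had 36.1, 33.5, 39.3 and 33.4 FPKM in treatment and 35.5, 21.4, 24.6 and 30.1 FPKM in model skin (0.36, SE 0.113, adjusted p = 0.0292). In each of them model replicates 2 and 3 were the lowest. Ccnb2, a mitotic B-type cyclin, had 16.2, 17.6, 22.0 and 16.2 FPKM in treatment and 17.03, 11.3, 11.9 and 14.6 FPKM in model skin (0.37, adjusted p = 0.0385). Bub1b, the BUBR1 kinase of the spindle checkpoint, had 11.5, 10.4, 14.1 and 10.0 FPKM in treatment and 11.2, 6.73, 7.72 and 9.83 FPKM in model skin (0.35, adjusted p = 0.0394). Mybl2, the B-MYB factor of mitotic genes, had 5.69, 4.30, 5.17 and 4.53 FPKM in treatment and 4.21, 2.91, 3.51 and 4.44 FPKM in model skin (0.32, adjusted p = 0.0441). Mcm5 had 15.6, 15.5, 16.3 and 13.8 FPKM in treatment and 15.5, 9.25, 10.4 and 12.9 FPKM in model skin (0.35, SE 0.119, adjusted p = 0.0445). All 11 were on average below the day 10 model level in model skin of day 15, as were all 48 genes of the list. The same model libraries of day 15 enter both comparisons, so this is no separate evidence.

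**Figure D3:**
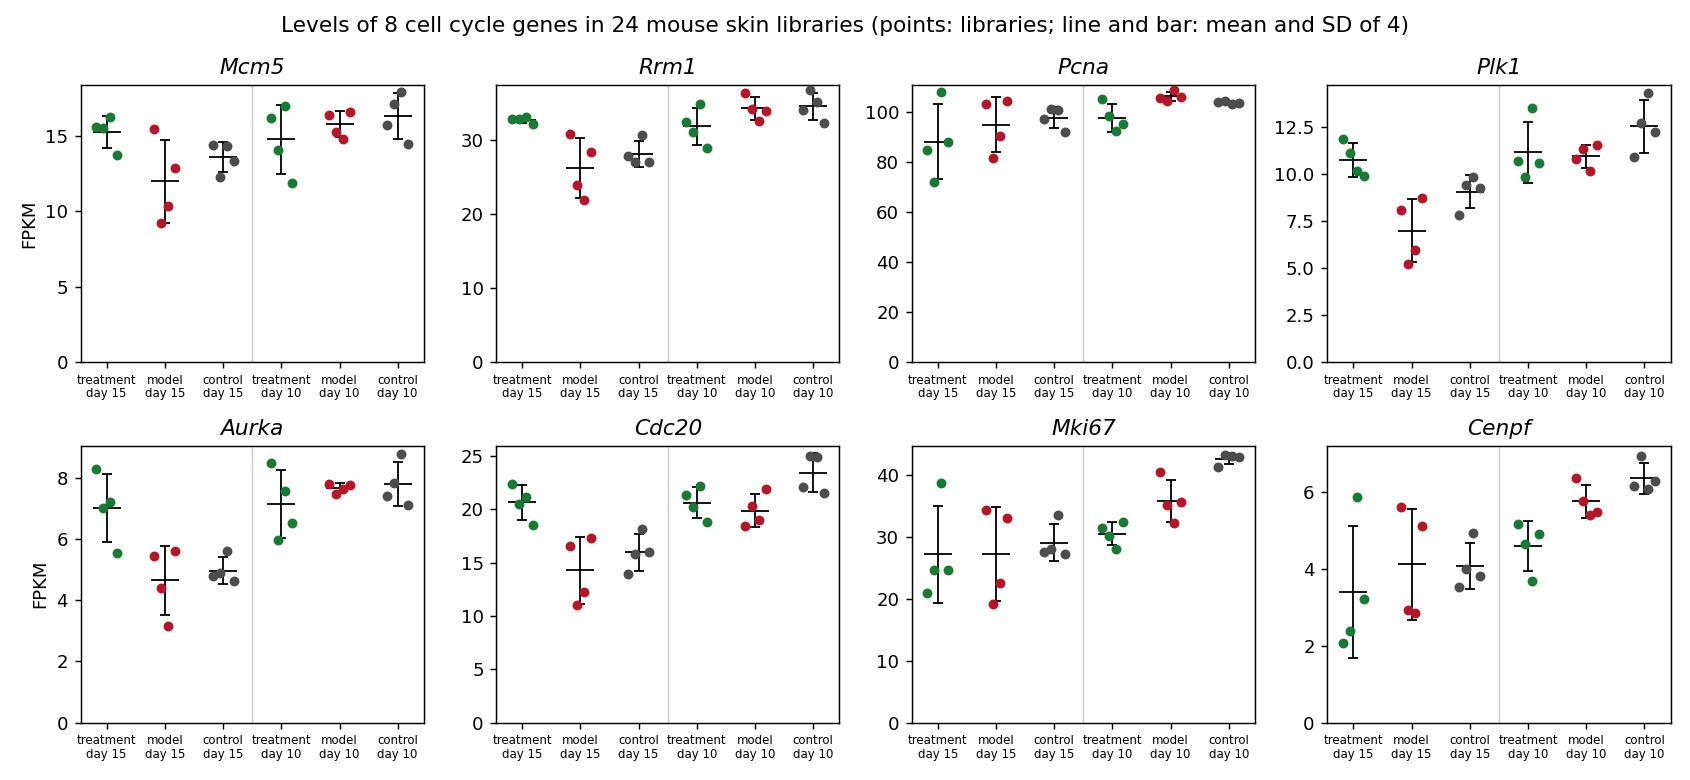
FPKM of 8 genes of the list in the 24 libraries, with points for mice and a line and bar for the mean and SD of 4. Plk1, Cdc20 and Rrm1 of treatment skin at day 15 lie above all 4 model libraries of that day, while Mki67 and Cenpf spread widely in both groups, from 20.9 to 38.6 and from 2.08 to 5.87 FPKM in treatment skin.

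Among members not called, differences ran from -0.26 to 0.37. Ccnb1 had 23.9, 22.1, 31.7 and 23.9 FPKM in treatment and 26.1, 14.6, 16.7 and 22.8 FPKM in model skin of day 15 (0.35, adjusted p = 0.0671, limma). Aurkb had 9.61, 10.4, 11.6 and 10.04 FPKM in treatment and 10.7, 5.497, 6.82 and 9.87 FPKM in model skin (0.34, adjusted p = 0.0938). Tyms had 5.04, 4.89, 6.55 and 4.74 FPKM in treatment and 4.38, 3.75, 4.29 and 4.94 FPKM in model skin (0.24, adjusted p = 0.0849). All these overlapped, with model replicates 2 and 3 low. Cdc6 had 1.67, 1.42, 2.09 and 1.41 FPKM in treatment and 2.37, 1.11, 1.12 and 2.09 FPKM in model skin, a difference of 0.01. Top2a had 33.7, 34.7, 46.9 and 37.1 FPKM in treatment and 43.9, 24.1, 26.3 and 40.6 FPKM in model skin, a difference of 0.21, within the spread of the model libraries. Mki67 had 20.9, 24.6, 38.6 and 24.6 FPKM in treatment skin of day 15 and 34.2, 19.1, 22.5 and 33.0 FPKM in model skin. Both groups averaged 27.2 FPKM, with an SD of 7.82 and of 7.56 (n = 4 each), and the difference was 0.00 with a limma adjusted p of 0.994. Kif11, the kinesin that pushes spindle poles apart, had 11.8, 9.99, 20.9 and 13.6 FPKM in treatment and 17.2, 9.68, 11.9 and 16.0 FPKM in model skin, a difference of 0.02. Ccne2, at 4.48, 3.36, 10.9 and 5.004 FPKM in treatment and 6.72, 6.27, 5.72 and 8.26 FPKM in model skin, had the lowest difference, -0.26 (adjusted p = 0.366). In these genes treatment replicate 3 was the highest treatment library. It was the highest of its group for 36 of the 48 genes.

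Gene length moved with this comparison. The 3 longest members, Cenpf at 11.4 kb, Mki67 at 10.1 kb and the kinetochore motor gene Cenpe at 7.81 kb, had differences of -0.25, 0.00 and -0.24. The 11 genes that rose were 0.931 to 4.13 kb long, a range that also held most of the genes not called. Treatment replicates 1 and 2 were the libraries with the lowest long genes relative to short ones, as given above. With each library's trend over gene length removed, an alternative added after the data were seen, limma again called 11 genes, 9 of them the same, and Ccnb2 and Ube2c were lost at adjusted p of 0.0680 and 0.0784.

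**Figure D4:**
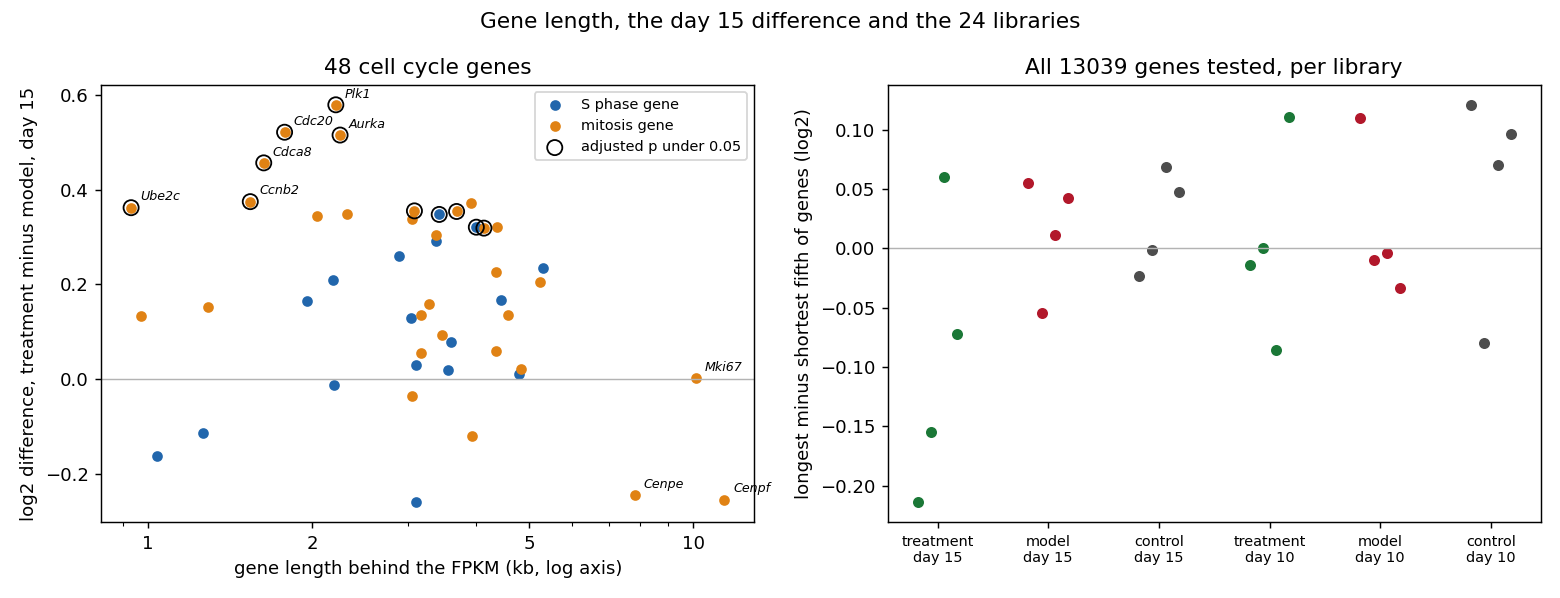
Left, log2 difference of treatment minus model at day 15 for the 48 genes against gene length in kb on a log axis, with rings on the 11 genes called. Right, per library, the median of the longest 20% minus that of the shortest 20% of all tested genes, which lies between -0.214 and 0.0598 in treatment libraries of day 15.

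The count in treatment against model skin rested on few libraries. It was 4 without model replicate 2, without model replicate 3 or without treatment replicate 1, and 21 without model replicate 1. Plk1, Cdc20, Aurka and Rrm1 were called each time 1 library was left out. Shares of all tested genes called in the fits without a library are not given here. Without the 4 libraries that stood apart, 2 mice remained per group, none of the 11 was called and 6 other genes were lower in treatment skin, Cenpf at -0.82, Cenpe at -0.73, Ccne2 at -0.56, Mki67 at -0.55, Hmmr at -0.55 and Pcna at -0.26. Without the libraries with low Y-linked transcripts, the mitosis median was 0.51 in place of 0.23. That value rests on 1 treatment library, replicate 3. This library had the lowest mean correlation with its group of all 24, 0.951, and was the highest of its group for 36 of the 48 genes. With only the treatment and model groups of day 15 in the fit, no gene was called, in the list or among all tested genes. Hair matrix and shaft markers moved with the result, and 13 of 15 rose, summing to 5804 to 8002 FPKM in treatment and 2925 to 4850 FPKM in model skin. Macrophage markers summed to 745 to 2933 FPKM in treatment and 2072 to 4160 FPKM in model skin, and 2 of 9 fell. Of 6 fibroblast markers 2 fell and of 5 neutrophil markers 1 fell. The part of these lists in the result was not tested.

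**Figure D5:**
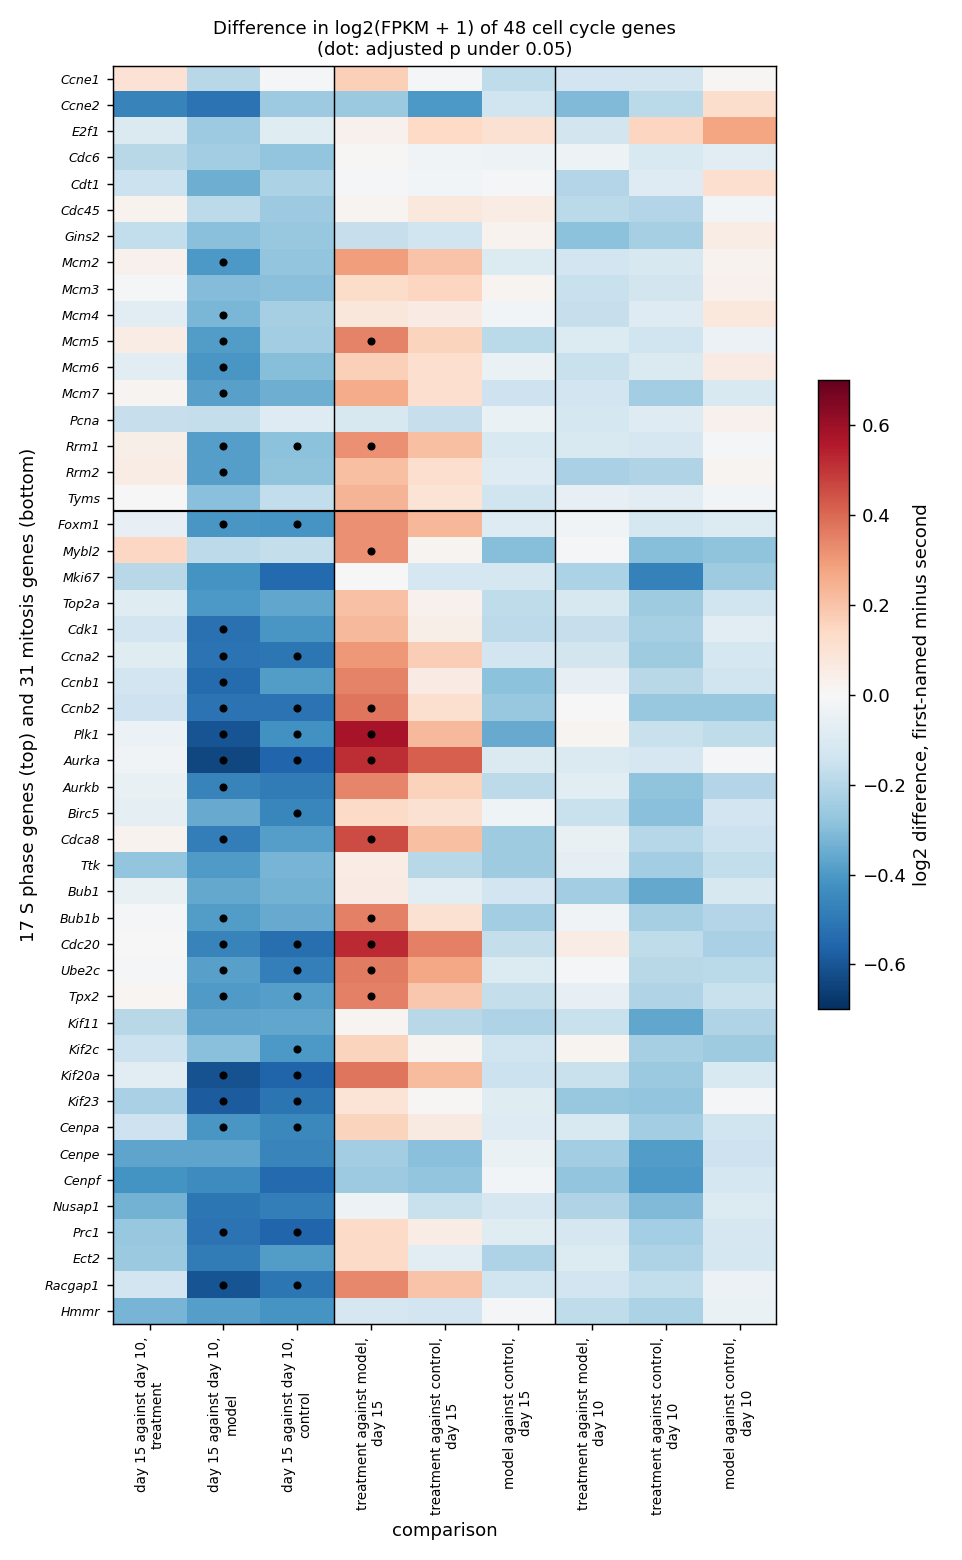
Difference in log2(FPKM + 1) of every gene of the list (rows) in 9 comparisons (columns), first-named group minus second, with a dot where the limma adjusted p was under 0.05. Dots stand in 3 columns, with 25, 16 and 11 of them for model between days, control between days and treatment against model at day 15.

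At day 10, 0 of 48 genes passed in limma for treatment against model skin, against 0.192% of all tested genes. Only Rrm2 had an unadjusted p under 0.05 and voom called 0, with 2 at that level. Rrm2 had 25.6, 23.1, 22.0 and 24.6 FPKM in treatment and 27.5, 28.4, 27.7 and 28.4 FPKM in model skin, a difference of -0.23 (SE 0.0975, adjusted p = 0.415). The groups did not overlap. Of 48 differences 44 were negative (40 and 45 under the other scalings), with medians of -0.14 for S phase, -0.10 for mitosis and -0.03 for all tested genes. They ran from -0.31 for Ccne2 to 0.05 for Cdc20. The kidney markers moved with this comparison too, at 0.101 to 0.167 FPKM in treatment and 17.7 to 25.4 FPKM in model skin, and their part was not tested.

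The third question is how model skin differed from control skin in the list. No gene passed in model against control skin in limma, against 13.8% of all tested genes at day 10 and 10.8% at day 15. At day 10, 4 genes had an unadjusted p under 0.05 and voom called 0, with 5 at that level. At day 15 the numbers were 5 in limma, and 0 called with 4 at that level in voom. The direction nonetheless ran one way for mitosis genes: all 31 differences were negative at each day (28 to 31 under the other scalings), with medians of -0.14 at day 10 and -0.14 at day 15. S phase genes did not share it at day 10, where 11 of 17 were positive with a median of 0.03. At day 15 their median was -0.05, against -0.03 for all tested genes, and at day 10 that of all tested genes was -0.02. In model skin of day 15 the mean log2 level of mitosis genes was 3.058 and 3.159 in replicates 2 and 3, below every control library. It was 3.729 and 3.636 in replicates 1 and 4, against 3.453 to 3.71 in control skin. The lower mitosis mean of model skin at day 15 thus lay in replicates 2 and 3.

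Mybl2 had 4.21, 2.91, 3.51 and 4.44 FPKM in model and 4.71, 4.34, 4.79 and 5.504 FPKM in control skin at day 15, a difference of -0.30 (SE 0.109, adjusted p = 0.0745, limma). At day 10 it had 5.12, 4.51, 3.82 and 4.14 FPKM in model and 5.77, 5.70, 5.04 and 5.68 FPKM in control skin, a difference of -0.28 (adjusted p = 0.0846). Model and control overlapped by 1 library on each day. Plk1 had the lowest difference at day 15, -0.35 (SE 0.121, adjusted p = 0.0603), with 8.07, 5.22, 5.94 and 8.72 FPKM in model and 7.81, 9.39, 9.82 and 9.23 FPKM in control skin. At the top of the S phase genes, E2f1, the factor that drives entry into S phase, had 4.21, 4.20, 4.63 and 5.14 FPKM in model and 3.36, 3.49, 3.59 and 3.80 FPKM in control skin of day 10. Its groups did not overlap, and the difference of 0.28 (SE 0.129) had an adjusted p of 0.1499. Without model replicate 1 of day 15, 7 genes were called at day 15, without model replicate 4 there were 2 and without control replicate 1 there was 1. At day 10, 1 was called without model replicate 1 and 3 with only the day 10 groups of the comparison fitted. As the shares of all tested genes in these fits are not given here, the counts are not shown to be particular to the list.

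Macrophage markers moved with DHT, with 9 of 9 higher at day 10, at summed levels of 1618 to 2336 FPKM in model and 646 to 1035 FPKM in control skin. Hair matrix and shaft markers summed to 1978 to 4822 FPKM in model and 4420 to 7810 FPKM in control skin, and 11 of 15 fell. At day 15, 2 of 9 macrophage markers rose and 4 of 15 hair markers fell. Basal epidermis, the other dividing compartment, summed to 757 to 1364 FPKM in model and 1533 to 1732 FPKM in control skin at day 15, where 3 of 10 markers fell, Krt5, Krt14 and Trp63. At day 10 the sums were 1141 to 1561 FPKM in model and 1392 to 1730 FPKM in control skin, and Trp63 alone fell. Of 6 fibroblast markers 2 rose on each day, and of 5 neutrophil markers 3 rose at day 10 and 1 at day 15. All 3 kidney markers tested were lower in model skin at day 10. Of 7 erythroid markers 2 rose and 2 fell at day 10, and 2 fell at day 15. Of 5 endothelial markers 1 rose on each day, and of 7 suprabasal markers 1 fell at day 15. Of all tested genes 13.8% were called at day 10 and 10.8% at day 15. The part of these lists in the mitosis values was not tested.

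Treatment against control skin gave no call either, against 3.24% of all tested genes at day 10 and 0.314% at day 15. At day 10, 12 genes had an unadjusted p under 0.05 in limma and voom called 0, with 13 at that level, while 47 of 48 differences were negative and the medians were -0.24 for mitosis, -0.12 for S phase and -0.05 for all tested genes. Treatment lay wholly below control in 18 of 48 genes, 17 of them mitosis genes, against 12.4% of all genes. Mki67 had the lowest difference, -0.47 (SE 0.160, adjusted p = 0.0909), with 31.3, 30.2, 28.0 and 32.3 FPKM in treatment and 41.3, 43.1, 43.0 and 42.9 FPKM in control skin. E2f1 had the one positive difference, 0.15. For Mki67 the control libraries stood well above, and kidney markers set the groups apart as well, at 0.101 to 0.167 FPKM in treatment and 25.4 to 29.3 FPKM in control skin. Macrophage markers summed to 1464 to 1863 FPKM in treatment and 646 to 1035 FPKM in control skin, with 5 of 9 called higher and all 9 positive. Of 7 erythroid markers 4 were higher and 1 lower, and of 5 neutrophil markers 1 was higher. Hair matrix and shaft markers were negative in 15 of 15 with none called. The part of these lists was not tested. With only these 2 groups fitted, 8 genes were called, and 20 without the libraries that stood apart, which are all from day 15 and enter only the shared spread. The share of all tested genes called in these fits is not given here. At day 15, 4 genes had an unadjusted p under 0.05 in limma, voom called 0 with 5 at that level, and the medians were 0.06 for mitosis, 0.10 for S phase and -0.02 for all tested genes. Aurka came highest, at 0.42 (SE 0.126, adjusted p = 0.102), with 8.28, 7.01, 7.21 and 5.56 FPKM in treatment and 4.79, 4.88, 5.59 and 4.62 FPKM in control skin, which overlapped by 1 library. Ccne2 came lowest, at -0.40 (adjusted p = 0.272). Without treatment replicate 3, 5 genes were called, again with the share of all tested genes not given.

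S phase and mitosis genes can be set against each other within a library, which removes differences in depth. The mean log2 level of S phase genes minus that of mitosis genes was 0.001, -0.173, -0.144 and -0.066 in control skin of day 15, against -0.274, -0.312, -0.349 and -0.296 at day 10. The days did not overlap, so mitosis genes stood lower relative to S phase genes at day 15. In model skin the values were -0.126, 0.130, 0.093 and -0.095 at day 15 and -0.211, -0.130, -0.062 and -0.119 at day 10, which overlapped. In treatment skin they were -0.052, -0.048, -0.296 and -0.047 at day 15 and -0.136, -0.158, -0.139 and -0.279 at day 10. Replicate 3 of day 15 stood apart from the other 3, and without it the days would not overlap. Model skin of day 10 lay above control skin of day 10 in every library. These are descriptions, with no test, because the genes of each mean were listed with earlier results known.

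Other genes of the same steps came from lists of 30 further S phase genes and 42 further mitosis genes. Between the days in control skin 3 of 30 and 17 of 42 fell in limma, against 3.33% of all tested genes, and in model skin 10 of 30 and 22 of 42 fell, against 6.85%. Their medians were -0.24 and -0.39 in control and -0.32 and -0.39 in model skin. In treatment skin 0 of 30 and 1 of 42 fell, the last being Sgo2a, a protector of centromere cohesion, with medians of -0.06 and -0.15. For treatment against model at day 15, 1 of 30 S phase genes rose, a smaller share than the 10.3% of all tested genes. Of 42 mitosis genes 8 rose and 1, the condensin subunit Smc4, fell. In model against control skin the sororin gene Cdca5 fell at day 15, and no other gene of either list passed at either day. The further S phase genes differed from the S phase members at day 10, with 22 of 30 negative and a median of -0.04.

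Of 27 listed G1 regulators 26 were tested. Between the days their medians were -0.05 in treatment skin, with 3 lower and 1 higher, -0.16 in model skin, with 4 lower, and -0.16 in control skin, with 1 lower. Of all tested genes 9.64% were called in treatment skin, and 6.85% and 3.33% were lower in model and control skin. The G1 calls were not examined under the other settings. Ccnd1, the cyclin D1 that carries growth signals into the cycle, averaged 39.1 FPKM at day 15 against 64.8 FPKM at day 10 in treatment skin, 40.7 against 65.4 FPKM in model skin and 43.9 against 63.0 FPKM in control skin. It fell in all of them, by 0.72, 0.69 and 0.51 (limma, adjusted p = 0.00208, 0.00224 and 0.0186), treatment skin included. Cdkn1a, the p21 inhibitor of cyclin-dependent kinases, ranged from 150.4 to 184 FPKM in treatment and from 106 to 146 FPKM in model skin of day 15, without overlap, and rose by 0.44 (adjusted p = 0.0119, limma). Cdkn2b, the p15 inhibitor of CDK4 and CDK6, ranged from 5.82 to 8.02 FPKM in treatment and from 3.79 to 5.06 FPKM in model skin, and rose by 0.59 (adjusted p = 0.00455). Both inhibitors were lower in model than in control skin at day 15, by -0.36 and -0.43 (adjusted p = 0.0470 and 0.0358), and at day 10, by -0.36 and -0.38 (adjusted p = 0.0377 and 0.0464). Cdkn2d, the p19 inhibitor of the same kinases as p15, went the other way at day 15, by 0.50 (adjusted p = 0.0159), and the D-type cyclin Ccnd3 was higher in model skin at day 10, by 0.39 (adjusted p = 0.0477). In model against control skin 1 of 26 was thus higher and 2 were lower at each day. Of all tested genes 13.8% were called at day 10 and 10.8% at day 15. These counts are not shown to be particular to the G1 list. Cdk4, E2f2 and Trp53 also rose and Ccng2 fell in treatment against model skin at day 15. That made 5 of 26 higher and 1 lower, where 10.3% of all tested genes were higher. The cyclin-dependent kinase inhibitor Cdkn1c had the largest G1 difference in treatment against control skin at day 10, at 9.05 to 12.2 FPKM in treatment and 16.6 to 22.2 FPKM in control skin, -0.87 (adjusted p = 0.00505). There 2 of 26 were lower, and 3.24% of all tested genes were called in either direction.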

How the data were processed

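Poly(A) RNA of 24 skin samples was prepared with TRIzol and a VAHTS Universal V6 kit, per the labels' protocols. The submitters' processing notes name fastp, HISAT2, HTSeq and build GRCm39; versions and the role of each are not given in the sources used here. The authors deposited FPKM per gene, and depth was not stated. Whole reads were recovered for 18715 of 18715 genes above 0 (tolerance 0.01 of a read for low and 0.05 for high genes), giving library totals of 37048896 to 41117262 reads. Gene lengths are those implied by reads and FPKM.

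A gene was kept where 4 or more libraries reached 1 FPKM. One mean per group was fitted to log2(FPKM + 1) of all 24 libraries with limma 3.58.1 (R 4.3.3; trend and robust eBayes), tests were two-sided, and p was adjusted by Benjamini-Hochberg over 13039 genes in each of 12 comparisons. Each SE pools the spread within all 6 groups and is not that of the groups compared alone. A pseudocount of 1 makes differences of low genes smaller. The fit was tested on simulated data. The members, gene lists and tests were chosen with earlier results of these data known. Every member could be named; library values were given for a panel by role and for members called in model against control or treatment against model skin, with the largest and smallest member of each comparison. Groups came from the sample titles. Replicate numbers did not pair the mice: in 0 of 15 pairs of groups did every same-numbered correlation pass 0.1. Alternatives were another pseudocount, other filters and scalings, fewer groups, the replicate block, voom on recovered reads, each library left out and, added after the data were seen, fits without doubted libraries and without length trends. Coordinates are those of the RefSeq table, since the expression table holds none.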

Additional observations from a re-analysis of the deposited data

Results flagged for a closer look

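Within groups of 4 libraries, 9 of 174 sets of values had a library far from the other 3 by Dixon's test at its 95% critical value. Chance flags about 1 in 20 groups. In control skin of day 15, replicate 3 was high for Foxm1 (6.12 FPKM, others 4.80 to 4.99), Mki67 (33.4 FPKM, others 27.2 to 28.0), Ccna2 (23.9 FPKM, others 18.4 to 19.3) and Kif11 (19.2 FPKM, others 14.4 to 15.0). In control skin of day 10, replicate 1 was low for Mki67 (41.3 FPKM, others 42.9 to 43.1) and replicate 3 low for Mybl2 (5.04 FPKM, others 5.68 to 5.77). In treatment skin of day 15, replicate 2 was low for Rrm2 (22.3 FPKM, others 25.2 to 25.6) and replicate 3 high for Tyms (6.55 FPKM, others 4.74 to 5.04). In model skin of day 10, replicate 1 was high for Bub1b (12.4 FPKM, others 11.5 to 11.6).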

How the results depend on the processing

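Counts of genes called out of 48 were compared with 16 for control between days, 25 for model between days, 11 for treatment against model at day 15 and 0 elsewhere. The share of all tested genes called under each setting is not given beside these counts. A changed count is therefore not shown to be particular to the list. Common-total scaling gave 4 for treatment against model at day 15, and no filter 7. Median-of-ratios scaling gave 6 for control and 9 for model between days, and it moved the median of all genes between days in model skin from -0.0833 to 0.0198. With only the groups compared in the fit, the counts were 36 for control between days, 0 for model between days, 0 for treatment against model at day 15, 3 for model against control and 8 for treatment against control at day 10. Without the libraries that stood apart, control between days had 39, model between days 0, treatment between days 9, treatment against model at day 15 6, all in the other direction, model against control at day 10 4, and treatment against control 20 at day 10 and 5 at day 15. Without the libraries with low Y-linked transcripts, model against control had 1 at each day. This leaves 1 treatment library at day 15, replicate 3, that is assumed to vary like the others. Counts that rest on it are not given. The replicate block gave 7 for control between days and 1 for model against control at each day; 5 of 24 libraries correlated best with their own number, and it moved no other count by over 1.5 times. Leaving out 1 library gave 0 to 16 for control between days, 2 to 33 for model between days, 0 to 7 for treatment between days, 4 to 21 for treatment against model at day 15, 0 to 1 and 0 to 7 for model against control at days 10 and 15, 0 to 5 for treatment against control at day 15 and 0 to 3 for the treatment-model change. No gene named as called changed sign: 417 of its values under other settings kept the call and 154 lost it, and 199 and 217 did when 1 library was left out. The cause was not tested. Depth allowed at least 198 reads for every member in every library, and its part in the calls was not tested.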
